A study of Mus musculus with 24 samples.

Results

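The enzymes and carriers that take up glucose, split it to pyruvate and lactate, feed it into the pentose phosphate pathway or store it as glycogen were followed by their mRNA in differentiating mouse precursor cells of fat. The 32 genes are 2 glucose carriers, 14 glycolytic genes from hexokinase to pyruvate kinase, 4 genes of lactate formation and transport, 3 genes of the oxidative and 4 of the non-oxidative pentose phosphate branch, and 5 glycogen genes. They were chosen by pathway membership and symbol from the 49452 genes of the table, all 32 were found, and none was listed at 0 in any of the 24 libraries.

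The cells were adipocyte precursors from the stromal-vascular fraction (SVF) of C57BL/6 mice (males of 6 to 8 weeks by the study's methods), isolated from brown adipose tissue (BAT) or from epididymal visceral white fat (vWAT, titled WAT in the labels). BAT tissue was pooled between mice where needed, so a library stands for a culture and not for a known animal. Each depot was nucleofected with a non-targeting siRNA (siCtrl) or with an siRNA against the long noncoding RNA H19 (siH19), both at 100 nmol/l (the sample titles read siKO and siH19_3), and was harvested at d0, before differentiation, or at d3, with 3 libraries for each of the 8 groups. The labels give a growth medium with 4.5 g/l glucose for all cultures, whereas the study's methods name DMEM/Ham's F-12 for primary cells. Differentiation was induced for 48 h with insulin, dexamethasone, rosiglitazone and IBMX, with indomethacin and triiodothyronine named for BAT, and then continued with rosiglitazone in vWAT and triiodothyronine in BAT. BAT and vWAT libraries were numbered in separate series by the labels, so that depot, medium and library series cannot be told apart.

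Fat cells import glucose through Slc2a1 (GLUT1), which carries basal uptake, and Slc2a4 (GLUT4), which insulin moves to the cell surface. Hexokinase traps the sugar as glucose 6-phosphate, from which 3 routes branch. Glycolysis yields pyruvate and lactate, the pentose phosphate pathway yields NADPH for fatty acid synthesis and ribose for nucleotides, and glycogen is a glucose store. Several of the steps have isoforms with different kinetics and tissue patterns, such as muscle, liver and platelet phosphofructokinase or heart and muscle lactate dehydrogenase.

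The summed FPKM of the libraries, a unit that divides fragments by transcript length and by library size, lay between 710794 and 841456. Total read numbers are unknown. Relative depth, read from the steps between low values, was 0.872 to 1.04 in BAT and 1.07 to 1.23 in vWAT, and replicates correlated across genes with r of 0.988 to 0.991. H19 was 83.2 to 99.7 FPKM in BAT siCtrl d3 and 12.04 to 16.9 in siH19, and its log2 fold change with siH19 lay between -4.63 (BAT d0) and -2.56 (vWAT d0), with an adjusted p of at most 0.0096 by limma. The 8 adipocyte markers summed to 3171 to 3448 FPKM at d0 and 38356 to 40089 at d3 in BAT siCtrl, and to 4167 to 4169 and 19579.7 to 20564 in vWAT siCtrl (8 of 8 called higher at d3 in both). The 8 brown markers reached 919 to 1029 FPKM in BAT siCtrl d3 and 154 to 171 in vWAT siCtrl d3, where Ucp1 was listed at 0. Genes from marker lists of other cells were detected too. The smooth muscle list (Acta2, Myh11, Cnn1 and Tagln) had the largest sum of these. It was 3253 to 3564 FPKM at d0 and 431 to 599 at d3 in BAT siCtrl, and 1444 to 1659 and 953 to 1168 in vWAT siCtrl. Which cells expressed these genes, and their part in the changes from d0 to d3, was not tested. BAT held skeletal muscle markers (360.3 to 608 FPKM at d0, 248 to 283 at d3), vWAT macrophage markers (287 to 318 and 464 to 506) and mesothelial markers (114 to 132 and 39.1 to 45.4). In such bulk RNA, fewer cells of a type and less RNA per cell cannot be told apart.

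Aldoa, the main aldolase of glycolysis, was the most abundant of the 32 mRNAs in 7 of the 8 groups, and Eno1, the enolase of a later step, led in BAT siH19 d0. On the FPKM scale, which corrects for length, Aldoa, Eno1, Ldha and Pkm were in this order the most abundant in BAT siCtrl d0. Aldoc, the brain-type aldolase, had the lowest level at d3 in both depots, with 0.668 FPKM in BAT siCtrl and 1.48 in vWAT siCtrl. Aldoa stood at rank 141 of all genes in BAT siCtrl d0 and at rank 25 at d3. The 32 genes together made up 0.609% to 0.668% of the summed FPKM in the BAT d0 libraries of both siRNAs and 1.15% to 1.32% at d3. In vWAT the same share was 0.710% to 0.755% and then 0.807% to 0.863%, so the BAT and vWAT ranges did not overlap at either day, with vWAT above BAT at d0 and below it at d3.

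**Figure D1:**
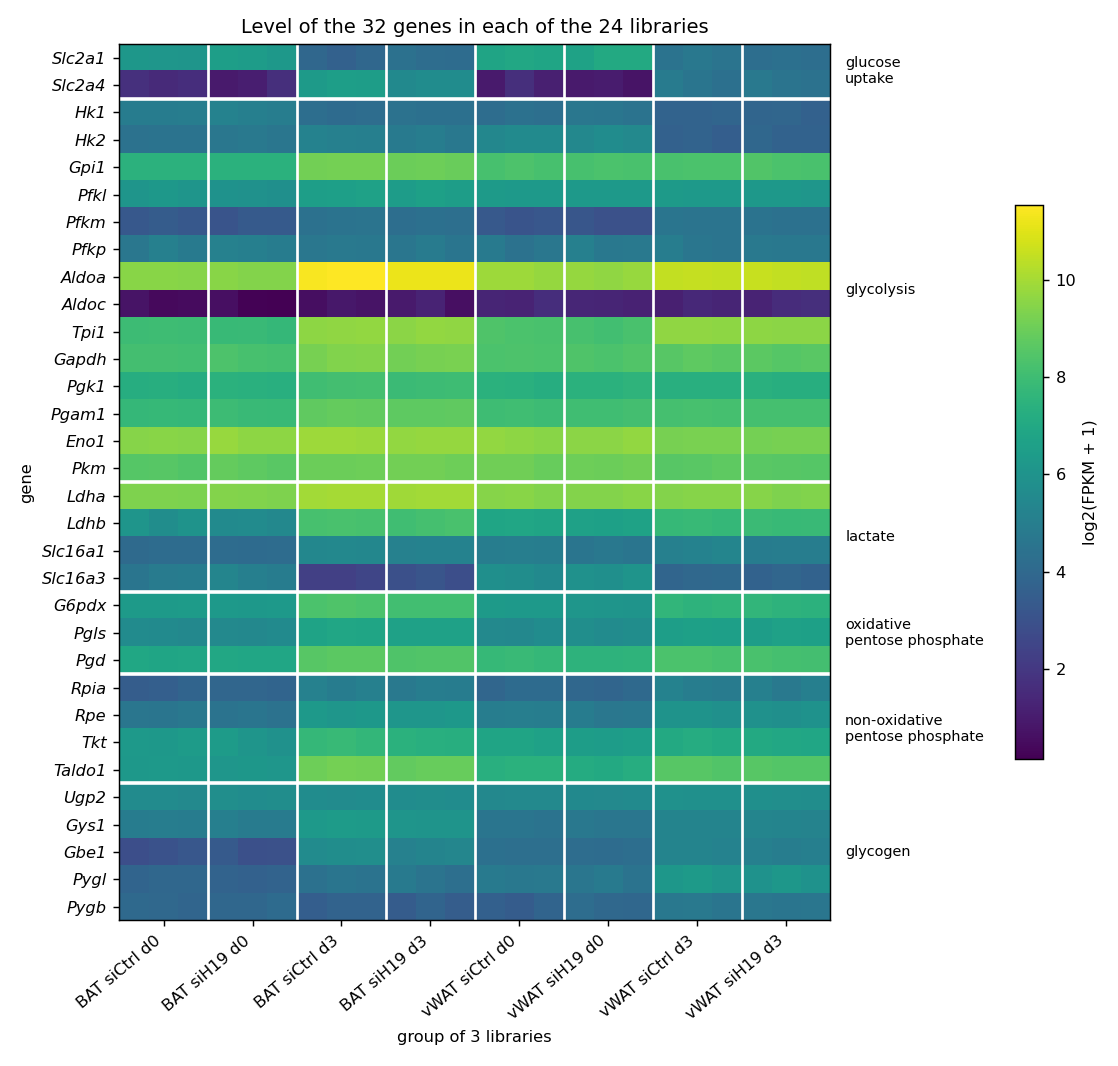
Level of each of the 32 genes (rows, grouped by step) in each of the 24 libraries (columns, in groups of 3), as log2(FPKM + 1) from dark (low) to yellow (high). Slc2a1 and Slc16a3 darken from d0 to d3 while Slc2a4, Taldo1 and Gbe1 brighten, and Aldoa is the brightest row at d3.

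The first comparison asks how the pathway changes as precursors differentiate. In BAT siCtrl cells most of these genes rose. Between d0 and d3, 24 of the 31 genes that passed the filter on low values rose and 3 fell, beside 29.9% and 35.3% of all genes tested. In vWAT siCtrl cells 15 of 32 rose and 4 fell, beside 26.3% and 23.9% of all genes. In either direction 65.2% of all genes were called in BAT and 50.3% in vWAT. A gene was called here at an adjusted p (limma on log2(FPKM + 1), Benjamini-Hochberg over all tested genes) under 0.05 where the change also reached 1.3-fold, and log2 changes on this scale understate those of low genes. The median log2 change over the members tested was 1.22 in BAT, where the median of all tested genes was -0.10, and 0.36 in vWAT, where that of all genes was 0.01. In BAT 25 genes had all d3 libraries above all d0 libraries and 4 below, beside 36.1% and 43.2% of all genes, and in vWAT 20 and 6, beside 36.2% and 34.9%. Across the siCtrl libraries 14 genes rose in both depots, 9 rose in BAT without a call in vWAT, and 3 fell in both (Hk1, Slc16a3 and Slc2a1). Hk2 was called in opposite directions, Pygb rose in vWAT without a call in BAT, and Eno1, Pfkp and Ugp2 were called in neither. Aldoc did not pass the filter in BAT and was not called in vWAT.

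The mRNAs of the 2 glucose carriers changed in opposite directions in both depots. Slc2a1 (chr4:119108711-119137983 on the plus strand, GRCm38) stood at 70.7, 68.1 and 66.0 FPKM in the BAT siCtrl d0 libraries and at 14.3, 11.6 and 14.6 at d3, a log2 change of -2.26 ± 0.09 (SE, n = 3 against 3; limma adjusted p = 9.4e-07). In vWAT it fell from 111, 124 and 112 to 21.0, 25.2 and 22.3 FPKM, by 2.29 on the log2 scale (limma adjusted p = 1.4e-06). The d0 and d3 libraries did not overlap in either depot, and all 3 vWAT libraries were above the 3 BAT libraries at each day. Slc2a4 (chr11:69942539-69948188 on the minus strand) started at 2.25, 1.84 and 2.09 FPKM in BAT and reached 80.5, 91.6 and 89.4 at d3, 42.3-fold higher by mean FPKM (log2 4.85 ± 0.08, limma adjusted p = 3.6e-08). In vWAT it went from 0.966, 2.15 and 1.21 to 28.1, 22.9 and 19.6 FPKM (log2 3.34 ± 0.21, limma adjusted p = 1.7e-05). At d3 the lowest BAT library was thus above the highest vWAT library, whereas the depots overlapped at d0. The rise of Slc2a4 differed between depots by 1.51 ± 0.24 on the log2 scale (interaction of depot and day, limma adjusted p = 0.00032). The fall of Slc2a1 differed by 0.03 ± 0.13 (limma adjusted p = 0.85).

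The promoters of 4 genes that recur in the results are shown, and all 4 hold the searched motif. Slc2a1 and Slc16a3 fell in both depots, Hk2 went in opposite directions and Ldha holds the most copies. Hk1 also fell in both depots, but its promoters hold no ACGTG and are not shown. A link between the motif and the changes was not tested. Each run is the 250 bases before the annotated start, 5′ to 3′ on the strand of the gene, from RefSeq on GRCm38.p6, with ACGTG (or CACGT, the same letters on the other strand) in capitals. RefSeq starts can differ from the gene bounds in the deposited values, as for Slc2a1, whose run ends past the gene start given above. In 35 of the 44 promoters of members, the bases that follow were found in an annotated transcript of the gene. ACGTG is the core of the element that hypoxia-inducible factors recognise and lies within the E-box CACGTG.
Slc2a1 promoter (chr4:119108495-119108744, plus strand): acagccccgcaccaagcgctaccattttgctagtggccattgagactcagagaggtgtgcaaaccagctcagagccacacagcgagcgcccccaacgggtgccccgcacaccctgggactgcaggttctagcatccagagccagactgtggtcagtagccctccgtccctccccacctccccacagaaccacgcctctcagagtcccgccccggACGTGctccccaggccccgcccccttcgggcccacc
Slc16a3 promoter (chr11:120948817-120949066, plus strand): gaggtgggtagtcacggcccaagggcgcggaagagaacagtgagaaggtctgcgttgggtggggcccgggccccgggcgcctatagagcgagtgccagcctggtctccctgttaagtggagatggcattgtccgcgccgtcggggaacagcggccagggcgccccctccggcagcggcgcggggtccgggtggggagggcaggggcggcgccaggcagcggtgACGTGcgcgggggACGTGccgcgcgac
Hk2 promoter (chr6:82774455-82774704, minus strand): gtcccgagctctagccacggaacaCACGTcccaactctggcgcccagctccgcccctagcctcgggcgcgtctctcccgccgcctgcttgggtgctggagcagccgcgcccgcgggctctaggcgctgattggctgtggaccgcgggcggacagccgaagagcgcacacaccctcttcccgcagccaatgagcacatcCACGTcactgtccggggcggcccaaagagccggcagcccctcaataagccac
Ldha promoter (chr7:46845554-46845803, plus strand): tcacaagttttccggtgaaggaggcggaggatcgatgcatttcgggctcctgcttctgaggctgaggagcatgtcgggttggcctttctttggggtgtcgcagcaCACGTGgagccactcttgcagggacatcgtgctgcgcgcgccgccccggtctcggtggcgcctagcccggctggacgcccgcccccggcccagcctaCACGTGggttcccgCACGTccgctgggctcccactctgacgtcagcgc

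Slc2a1 holds 1 such match, Slc16a3 and Hk2 hold 2 each, and this Ldha promoter holds 5 when both strands are counted, since each CACGTG counts on either strand. Of the 31 members with a RefSeq promoter, 13 (41.9%) hold ACGTG in at least 1 promoter, beside 18.5% of 27025 genes and 20.0% of 17492 coding genes searched in the same way. CACGTG was found in 3 members (9.68%) and in 6.86% of all genes. GCGTG (or CACGC), another form of the hypoxia element, was found in 21 members (67.7%), in 30.9% of all genes and in 36.7% of coding genes. The median GC content was 60.2% over the members' promoters and 52.4% over all promoters, and its part in these shares was not tested. Slc2a4 had no entry. A match describes letters only and says nothing of binding.

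Of the hexokinases, which trap glucose in the cell, Hk2 went opposite ways in the depots. Hk2, the insulin-responsive muscle and fat form, stood at 20.3, 21.4 and 21.2 FPKM in BAT siCtrl d0 and 35.5, 33.4 and 32.4 at d3 (log2 0.66 ± 0.05, limma adjusted p = 3.5e-05). In vWAT it fell from 42.2, 46.7 and 46.7 to 11.8, 12.8 and 10.8 FPKM (log2 -1.85 ± 0.08, limma adjusted p = 2.7e-06). The vWAT libraries were thus above all BAT libraries at d0 and below all of them at d3, and the interaction of 2.52 ± 0.09 (limma adjusted p = 7.2e-09) was the largest of the 32 genes. Hk1, the widely expressed form, fell in both depots, from 29.6 ± 0.360 to 17.3 ± 0.859 FPKM in BAT (SD, n = 3) and from 18.9 ± 1.19 to 12.9 ± 0.485 in vWAT.

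Most genes of the middle and lower steps of glycolysis rose in BAT, and most were not called in vWAT. In BAT siCtrl 10 of the 13 glycolytic genes tested rose and 1 (Hk1) fell, with a median log2 change of 0.86. In vWAT 3 of 14 rose (Pfkm, Tpi1 and Aldoa), 2 fell (Hk1 and Hk2), and the median was 0.01. Aldoa, which splits fructose 1,6-bisphosphate, was 729, 728 and 720.5 FPKM in BAT d0 and 2735, 2986 and 2988 at d3 (log2 2.00 ± 0.04, limma adjusted p = 7.7e-08). In vWAT it went from 933, 923 and 847 to 1449, 1473 and 1425 FPKM, 1.61-fold higher, and no library of one day overlapped the other in either depot. Tpi1, which interconverts the resulting triose phosphates, rose to similar levels, 803 ± 31.2 FPKM in BAT and 796 ± 12.8 in vWAT at d3 (log2 1.68 and 1.31). Gpi1, which turns glucose 6-phosphate into fructose 6-phosphate, rose 3.19-fold in BAT, from 178, 175 and 178 to 546, 576 and 569 FPKM. In vWAT it was 303, 327 and 300.3 FPKM at d0 and 312, 313 and 313 at d3, with overlapping ranges (log2 0.01 ± 0.04, limma adjusted p = 0.79), and the interaction was 1.65 ± 0.05 (adjusted p = 2.8e-09).

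Gapdh, Pgk1, Pgam1 and Pkm, the enzymes from glyceraldehyde 3-phosphate to pyruvate other than enolase, rose in BAT by 1.22, 0.86, 1.04 and 0.49 on the log2 scale. Their vWAT values were 0.30, -0.03, 0.19 and -0.36, and none was called. Eno1 had log2 values of 0.38 in BAT and -0.35 in vWAT, under 1.3-fold in both (limma adjusted p = 2.3e-05 and 0.00086), and an interaction of 0.73 ± 0.06 (adjusted p = 1.6e-06). Gapdh, often used as a reference gene, was 278, 276 and 273 FPKM in BAT d0 and 582, 671 and 689 at d3 without overlap.

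Phosphofructokinase, the main control point of glycolysis, is encoded by 3 genes. Pfkl, the liver form, was the largest at 68.9 ± 3.76 FPKM in BAT d0 and 95.3 ± 4.25 at d3 and was called higher in BAT (log2 0.46), while vWAT had 77.9 ± 2.66 and 77.9 ± 1.96 FPKM. Pfkm, the muscle form, rose in both depots, from 8.83, 9.92 and 8.55 to 20.0, 21.5 and 21.9 FPKM in BAT and from 8.97, 7.66 and 8.52 to 22.8, 21.8 and 21.9 in vWAT. Pfkp, the platelet form, was not called (log2 -0.15 ± 0.12 and 0.06 ± 0.14), and its gene overlaps Pitrm1 on the other strand. The summed skeletal muscle markers were 360.3 to 608 FPKM at d0 and 248 to 283 at d3 in BAT siCtrl. In vWAT siCtrl they were 33.3 to 42.7 and 14.3 to 17.5 FPKM. Their part in the rise of Pfkm was not tested.

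The genes of lactate formation and export differed in isoform balance between the days in both depots. Ldha, the muscle form of lactate dehydrogenase, was 652, 652 and 629.8 FPKM in BAT d0 and 983, 1018 and 1034 at d3 (log2 0.65 ± 0.03, limma adjusted p = 3.6e-06). In vWAT it was 713, 728 and 673 and 685, 715 and 702 FPKM, with overlapping ranges (log2 -0.01 ± 0.04, adjusted p = 0.88). Ldhb, the heart form, rose 4.99-fold in BAT, from 66.6, 51.8 and 62.7 to 296, 309 and 299 FPKM, and 1.94-fold in vWAT, from 113, 117 and 109.8 to 218, 228 and 214. All d3 libraries were above all d0 libraries. The monocarboxylate carriers, which move lactate and pyruvate across the membrane, went opposite ways in BAT. Slc16a3 (MCT4) fell from 22.8, 28.1 and 29.0 to 3.94, 3.87 and 4.71 FPKM in BAT (6.38-fold lower) and from 54.9, 51.9 and 46.2 to 13.4, 15.0 and 15.6 in vWAT (3.48-fold lower). Slc16a1 (MCT1) rose from 16.0, 17.1 and 16.9 to 41.3, 43.7 and 41.1 FPKM in BAT and went from 30.4 ± 0.386 to 36.0 ± 2.62 in vWAT (log2 0.23, under 1.3-fold).

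Most genes of both pentose phosphate branches rose in both depots. In BAT all 3 oxidative and all 4 non-oxidative genes were called higher, with median log2 changes of 1.75 and 1.53. In vWAT all 3 oxidative and 3 of 4 non-oxidative genes were called higher, with medians of 1.03 and 0.98, and Tkt had a log2 value of 0.34 ± 0.06. G6pdx, the entry enzyme that makes NADPH, was 80.9, 79.6 and 83.3 FPKM in BAT d0 and 319, 335 and 315 at d3 (3.98-fold). In vWAT it was 81.6, 79.0 and 75.5 and 200.3, 184 and 194 FPKM (2.45-fold), so the depots overlapped at d0 and not at d3. Pgd, which makes the second NADPH, rose 3.39-fold in BAT and 1.39-fold in vWAT, where it started higher (223 against 117 FPKM).

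Taldo1 (transaldolase), which returns pentose carbon to glycolysis, had the second largest rise in BAT after Slc2a4. It went from 74.4, 78.3 and 73.2 to 525, 568 and 552 FPKM in BAT (log2 2.85 ± 0.04, limma adjusted p = 3.2e-08) and from 161, 172 and 169 to 387, 379 and 353 in vWAT (log2 1.15 ± 0.05). Here too BAT libraries were below all vWAT libraries at d0 and above all of them at d3, with an interaction of 1.70 ± 0.06 (adjusted p = 9.7e-09). Its partner Tkt (transketolase) rose from 77.1 ± 5.35 to 214 ± 8.50 FPKM in BAT. Rpia and Rpe, which interconvert the pentose phosphates, rose by 1.43 and 1.60 in BAT and by 0.98 and 0.98 in vWAT on the log2 scale.

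The genes of glycogen synthase and branching rose in both depots, and the changes of the phosphorylases, which break glycogen down, were more positive in vWAT. Gys1, the glycogen synthase of muscle and most tissues, was 29.8, 30.6 and 29.3 FPKM in BAT d0 and 79.2, 82.9 and 80.3 at d3. In vWAT it was 22.7, 22.8 and 21.1 and 38.0, 37.5 and 37.6 FPKM, and BAT libraries were above all vWAT libraries at both days. Gbe1, the branching enzyme, rose 7.22-fold in BAT, from 6.23, 6.93 and 8.29 to 48.4, 52.6 and 53.8 FPKM, and 1.94-fold in vWAT, from 19.5, 18.9 and 18.96 to 37.9, 37.7 and 35.9. The liver phosphorylase Pygl, which removes glucose units from glycogen, rose in both, from 14.0 to 20.1, 22.6 and 21.2 FPKM in BAT and from 25.8 to 72.2, 80.4 and 65.9 in vWAT. The brain form Pygb rose from 11.4, 10.1 and 13.3 to 25.1, 26.1 and 22.8 FPKM in vWAT, whereas in BAT it was 15.2, 14.7 and 13.6 and 10.8, 12.4 and 12.4 (log2 -0.26, under 1.3-fold). Both phosphorylases had interactions below 0, -0.89 and -1.296. Ugp2, which makes UDP-glucose, had log2 values of 0.07 in BAT and 0.37 in vWAT and was not called. The Gys1 locus overlaps Ruvbl2 on the other strand, whose median level was 71.4 FPKM, and counting by strand was not stated. The same holds for Slc2a1 with Gm12868, Pfkm with Senp1 and G6pdx with Ikbkg.

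**Figure D2:**
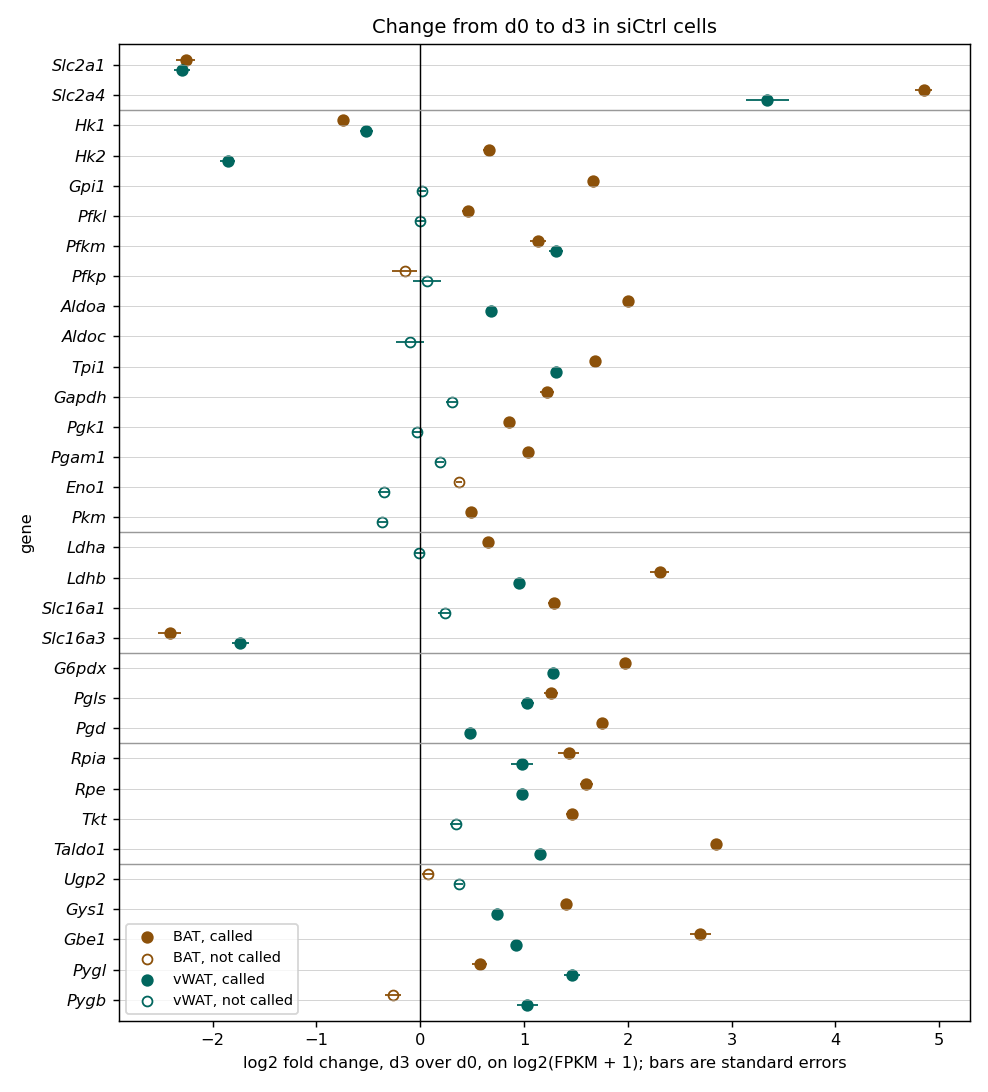
Log2 fold change from d0 to d3 on log2(FPKM + 1) in siCtrl cells for each gene, with standard errors, in BAT (brown) and vWAT (green), filled where called. Points of BAT lie to the right of vWAT for most genes, Hk2 lies on opposite sides of 0 and Slc2a1 of both depots lies near -2.3.

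The change from d0 to d3 differed between depots for 27 of 32 genes (interaction of depot and day in siCtrl, limma adjusted p under 0.05 without a minimum fold), 22 of them more positive in BAT and 5 more negative. Of all genes tested 24.9% and 28.1% were called in these directions. The 10 largest more positive in BAT were Hk2, Gbe1, Taldo1, Gpi1, Slc2a4, Ldhb, Aldoa, Pgd, Tkt and Slc16a1, from 2.52 down to 1.05. The 5 more negative were Pygb (-1.296), Pygl (-0.89), Slc16a3 (-0.68), Ugp2 (-0.30) and Hk1 (-0.22). The Hk1 call was lost under median-ratio scaling (adjusted p = 0.13) and that of Rpia (0.45) with no filter on low values (0.064), and without 1 library the calls were lost in 7 (Hk1) and 8 (Rpia) of 12 fits. The adipocyte markers differed in the same direction, with 8 of 8 called and a median interaction of 1.26, and the part of a different extent of differentiation was not tested.

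Summed over each step, the siCtrl libraries of d0 and d3 did not overlap in either depot. Glycolytic genes summed to 3028, 3084 and 2997 FPKM in BAT siCtrl d0 and 6967, 7401 and 7459.9 at d3, against 3849, 3816 and 3548 and 4512, 4630.1 and 4544 in vWAT. Such sums weigh abundant genes most, and Aldoa alone had a mean of 2903 FPKM in BAT d3 and 1449 in vWAT d3. The median log2 change of the glycolytic genes in vWAT was 0.01. The carriers Slc2a1 and Slc2a4 together summed in BAT to 70.3 ± 2.44 FPKM at d0 and 101 ± 5.08 at d3 (SD, n = 3), and in vWAT to 117 ± 7.90 and 46.4 ± 3.92. The oxidative pentose phosphate sum went from 245 ± 4.41 to 832 ± 27.2 FPKM in BAT and from 348 ± 7.55 to 598 ± 10.4 in vWAT. The glycogen sum was 215 ± 5.50 FPKM in BAT and 229.7 ± 10.03 in vWAT at d3. The exact permutation test of 3 against 3 libraries reaches p = 0.1 at the least, and it gave 0.1 for d3 against d0 in the sums of all 6 steps in both depots.

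**Figure D3:**
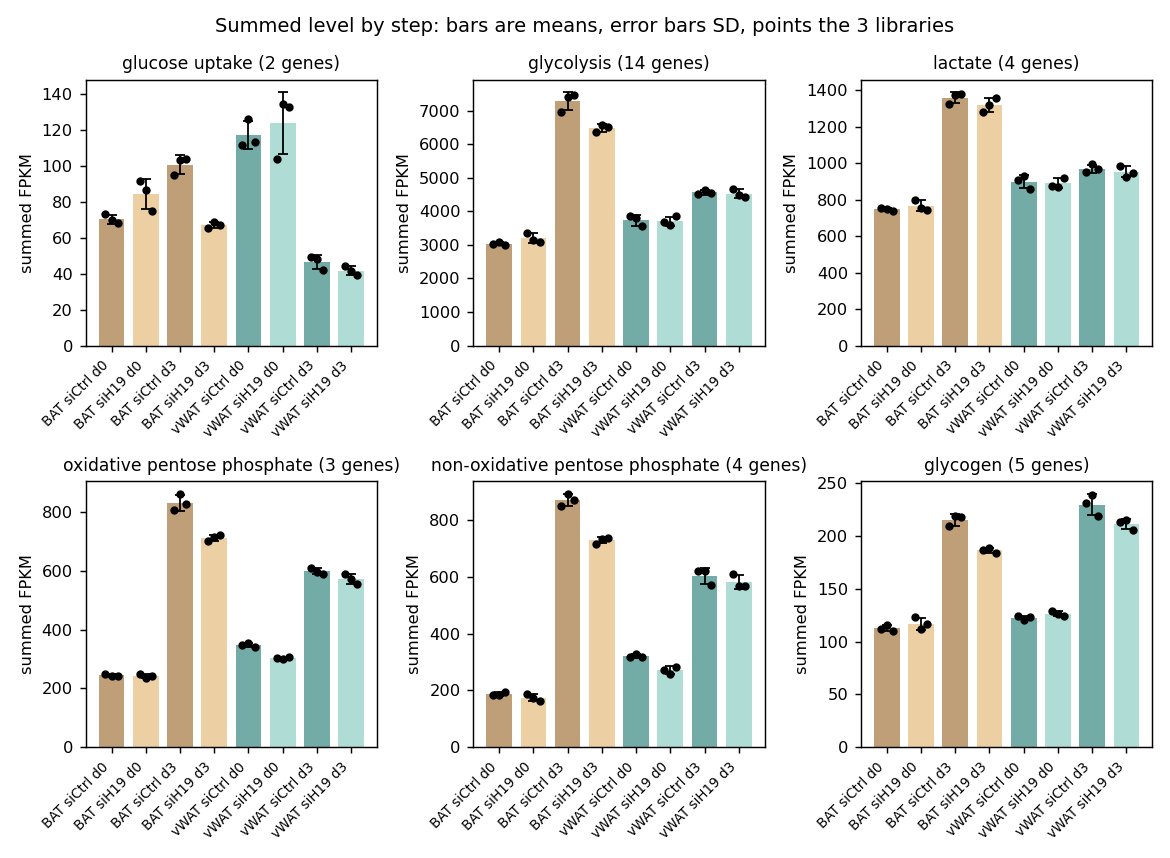
Summed FPKM of the genes of each step in each group, with bars for means, error bars for SD and points for the 3 libraries. The non-oxidative pentose phosphate sum is 188 FPKM at d0 and 869 FPKM at d3 in BAT siCtrl, and the glucose uptake sum is higher at d3 in BAT and lower at d3 in vWAT.

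Shares of isoforms within a library do not depend on how that library was scaled. Slc2a4 made up 2.93% ± 0.257 of the Slc2a1 and Slc2a4 mRNA in BAT siCtrl d0 (SD, n = 3), 86.5% ± 1.98 at d3, and 1.21% ± 0.438 and 50.6% ± 5.81 in vWAT. Hk2 made up 41.5% ± 0.687 of hexokinase mRNA in BAT d0 and 66.1% ± 1.196 at d3, but 70.5% ± 0.556 and then 47.8% ± 2.81 in vWAT. The d0 and d3 libraries did not overlap in either family. The Ldhb share was 8.57% ± 1.04 at d0 and 22.9% ± 0.456 at d3 in BAT and 13.8% ± 0.194 and 23.9% ± 0.492 in vWAT. The Slc16a3 share was 61.4% ± 2.29 and 62.5% ± 2.05 at d0 and 9.04% ± 1.11 and 28.9% ± 0.613 at d3 in BAT and vWAT. Pfkm made up 8.57% ± 0.259 of phosphofructokinase mRNA in BAT d0 and 14.9% ± 0.323 at d3, beside 7.58% ± 0.332 and 17.7% ± 0.513 in vWAT. Exact permutation tests gave their smallest p of 0.1 for d3 against d0 in each of these shares in both depots.

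**Figure D4:**
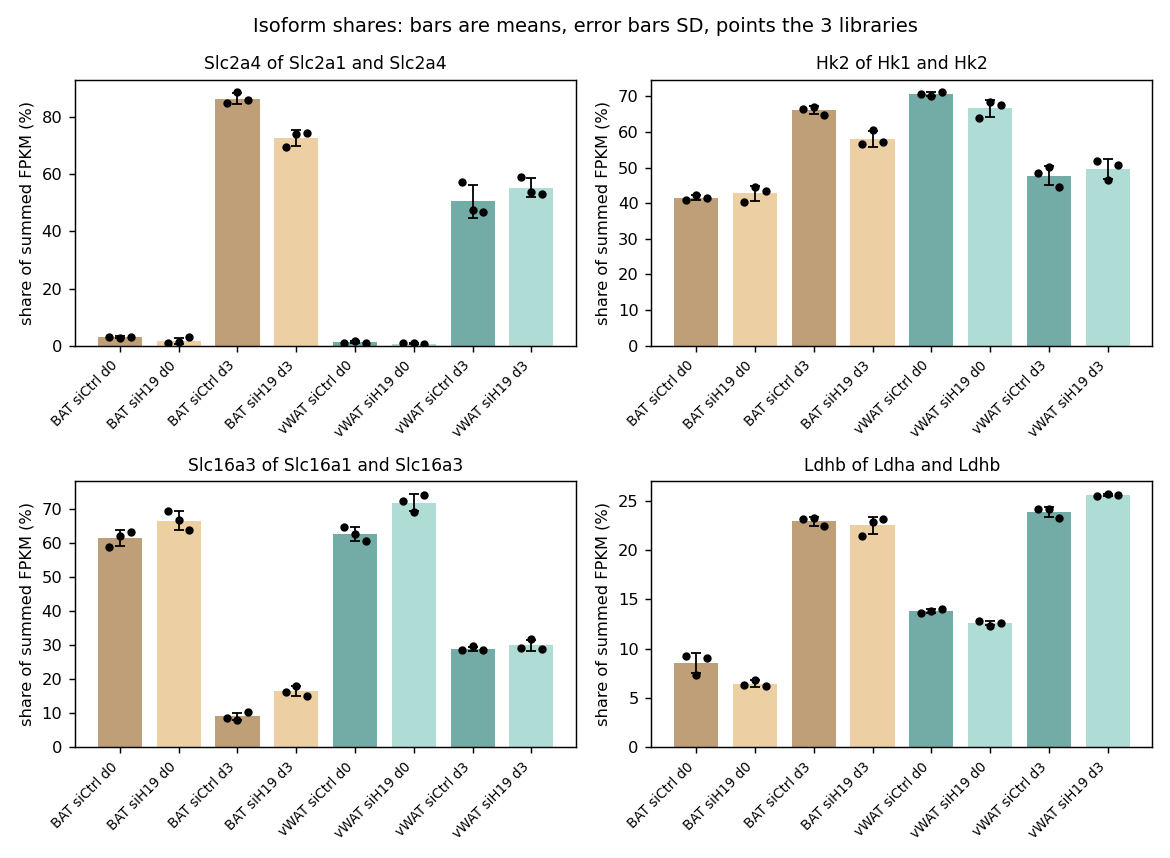
Share of one isoform in the summed FPKM of its family, in percent, in each group, with bars for means, error bars for SD and points for the 3 libraries. The Slc2a4 share passes from near 0 at d0 to 86.5% in BAT siCtrl d3 and 72.7% in BAT siH19 d3, and the Hk2 share is higher at d3 in BAT and lower at d3 in vWAT.

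The second comparison set BAT against vWAT in siCtrl cells and uses the same libraries. More of the genes were lower than higher in BAT at d0, and more were higher than lower at d3. At d0 2 of 32 genes were called higher in BAT (Hk1 and Gys1) and 14 lower, beside 10.2% and 21% of all genes. At d3 16 were higher and 5 lower, beside 16.5% and 32.1%. In either direction 31.2% and 48.6% of all genes were called. All BAT libraries were above all vWAT libraries for 4 genes at d0 and 22 at d3 (18.6% and 25.3% of all genes) and below them for 21 and 6 (40.3% and 45.1%). The medians were -0.33 and 0.38 over the 32 genes and -0.13 and -0.16 over all genes. Relative to median-ratio scaling the deposited values place the median of all genes at -0.13 and -0.14, and with that scaling 3 higher and 11 lower genes were called at d0, and 21 and 5 at d3. Of all genes 14.0% and 14.9% were then called at d0, and 21.4% and 25.6% at d3.

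At d0 the 10 genes furthest below vWAT were Gbe1, Taldo1, Hk2, Slc16a3, Pgd, Ldhb, Aldoc, Pygl, Slc16a1 and Gpi1, from -1.31 to -0.81 (-1.20 to -0.68 after median-ratio scaling). The 6 genes Gbe1, Gpi1, Hk2, Ldhb, Taldo1 and Tkt were called lower in BAT at d0 and higher at d3. The call of Gys1 at d0 was lost without vWAT replicate 3 and that of Hk1 at d3 without BAT replicate 1, both under 1.3-fold (0.38 and 0.37). The Tkt call at d0 fell under 1.3-fold after scaling (-0.35), and the other five kept both calls. At d3 the largest differences were Slc2a4 (1.86 ± 0.13), Hk2 (1.44 ± 0.07), Gys1 (1.08 ± 0.04) and Aldoa (1.00 ± 0.04) on the high side of BAT, followed by Gpi1 (0.85), Pgk1 (0.78), G6pdx (0.74), Gapdh (0.70), Tkt (0.64) and Pgam1 (0.62). On the low side were Pygl (-1.73 ± 0.08), Slc16a3 (-1.60 ± 0.10), Pygb (-0.99 ± 0.08), Slc2a1 (-0.72 ± 0.11) and Aldoc (-0.57 ± 0.12). After scaling the values with standard errors here were 1.99, 1.57, 1.21 and 1.14, and -1.59, -1.48, -0.86, -0.59 and -0.50. Gys1, Hk1, Slc2a1, Slc16a3, Pygl and Aldoc were on the same side at both days. Skeletal muscle markers were higher in BAT at both days (248 to 283 against 14.3 to 17.5 FPKM at d3) and macrophage markers in vWAT, and their part in these differences was not tested.

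The third comparison asks what an H19 knockdown changes in these genes. In BAT at d3, the insulin-responsive carrier, a pentose phosphate enzyme and the glycogen branching enzyme were lower with siH19, and the basal carrier and MCT4 were higher. Of 31 genes tested 3 fell and 2 rose, beside 2.18% and 6.39% of all genes (8.57% in either direction). Calls of a rise were thus about as frequent as among all genes, and that of Slc2a1 was not stable, as given below. Without overlap, 4 genes were higher and 15 lower, beside 24.2% and 13.1%. Slc2a4 was 80.5, 91.6 and 89.4 FPKM in siCtrl and 45.5, 50.8 and 49.96 in siH19 (log2 -0.83 ± 0.07, limma adjusted p = 0.0020). Gbe1 was 48.4, 52.6 and 53.8 and 34.4, 37.4 and 39.8 FPKM (log2 -0.46 ± 0.07, adjusted p = 0.0083). Tkt was 209, 223 and 209 and 170.4, 163 and 156 FPKM (log2 -0.39 ± 0.05, adjusted p = 0.0052). In these 3 genes every siH19 library was below every siCtrl library. The Tkt change fell under 1.3-fold without siCtrl replicate 2 or siH19 replicate 3.

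Slc16a3 was 3.94, 3.87 and 4.71 FPKM in BAT siCtrl d3 and 6.67, 7.81 and 6.38 in siH19 (log2 0.62 ± 0.11, limma adjusted p = 0.013). Slc2a1 was 14.3, 11.6 and 14.6 and 19.9, 17.7 and 17.1 FPKM (log2 0.41 ± 0.10, adjusted p = 0.042). Groups of both genes did not overlap. The Slc2a1 call was lost in each of the 6 fits without 1 library, with no filter on low values (adjusted p = 0.094) and with median-ratio scaling (0.059), and that of Slc16a3 without siCtrl replicate 2 (0.053). Median-ratio scaling thus left 1 higher and 3 lower, beside 5.02% and 3.28% of all genes. The BAT siCtrl d3 libraries also enter the comparison with d0, so the values of both comparisons for these genes are not independent.

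A further 10 genes had an adjusted p under 0.05 below 1.3-fold, all lower with siH19, while with no minimum fold 5.61% of all genes were called lower and 10.6% higher. They were Gys1 (-0.31), Aldoa (-0.30), Hk2 (-0.29), G6pdx (-0.26), Slc16a1 (-0.25), Taldo1 (-0.23), Pgd (-0.21), Gpi1 (-0.16), Pgls (-0.16) and Eno1 (-0.14). Aldoa, for example, was 2735, 2986 and 2988 FPKM in siCtrl and 2337, 2379 and 2364 in siH19, and G6pdx 319, 335 and 315 and 268, 268 and 272. The groups did not overlap in either gene. Ldha (1012 ± 26.4 and 990.4 ± 17.7 FPKM) and Ldhb (301 ± 6.51 and 288 ± 19.2) overlapped. The median over the 31 genes was -0.15, with 6 above 0, while the median of all genes was 0.05 with 59.5% above 0. Summed levels were lower for glycolysis (6362, 6582 and 6527 FPKM in siH19 against 6967, 7401 and 7459.9), the oxidative (702, 713 and 721 against 807, 861 and 827) and non-oxidative pentose phosphate genes (716, 732 and 737 against 848, 890.5 and 868). The sums were also lower for glucose uptake (65.4, 68.5 and 67.1 FPKM in siH19 against 94.8, 103.2 and 104.0) and glycogen (187, 189 and 184 against 209, 219 and 218). None of these ranges overlapped, and the exact permutation p was 0.1 for each, the smallest possible. The lactate sums overlapped (1321 against 1359 FPKM, exact permutation p = 0.2). Aldoa makes up a large part of the glycolytic sum. In vWAT d0 the oxidative (304 against 348 FPKM) and non-oxidative sums (271 against 321) were also lower with siH19, without overlap. So were the oxidative (571 against 598) and glycogen sums (211 against 229.7) in vWAT d3. The other vWAT sums overlapped. In BAT d0 only glucose uptake did not overlap, and it was higher with siH19 (84.4 against 70.3).

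The isoform balance differed in the same cells. With siH19 the Slc2a4 share in BAT d3 was 72.7% ± 2.72 instead of 86.5% ± 1.98, the Hk2 share 58.1% ± 2.205 instead of 66.1% ± 1.196 and the Slc16a3 share 16.5% ± 1.44 instead of 9.04% ± 1.11, with an exact permutation p of 0.1 each. The Ldhb share was 22.5% ± 0.898 and 22.9% ± 0.456, and its libraries overlapped. Some shares differed without overlap elsewhere too. The Slc16a3 share was higher with siH19 in BAT d0 (66.5% against 61.4%) and vWAT d0 (71.8% against 62.5%). The Hk2 share was lower in vWAT d0 (66.6% against 70.5%), and the Ldhb share at d0 in both depots. The Slc2a4 share overlapped at d0. In vWAT d3 the Slc2a4, Hk2 and Slc16a3 shares overlapped, and the Ldhb share was higher with siH19 (25.6% against 23.9%). Cell type markers differed with siH19 in BAT d3 as well. The brown markers summed to 562 to 628 FPKM in siH19 and 919 to 1029 in siCtrl (6 of 8 called lower), smooth muscle markers to 1029 to 1241 and 431 to 599 (3 of 3 tested called higher) and precursor markers to 635 to 694 and 384 to 430.0 (4 of 5 tested called higher). Adipocyte markers, none of 8 called, summed to 34870.2 to 37206 and 38356 to 40089, and macrophage markers to 79.7 to 90.4 and 126 to 158. Skeletal muscle markers summed to 295 to 463 and 248 to 283 FPKM (1 of 6 tested called higher) and cycling markers to 144 to 149.6 and 111 to 122 (1 of 7). The part of these in the 5 calls and in the isoform shares was not tested.

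In vWAT at d3 no member was called with siH19 (limma), beside 0.0305% of all genes (0.00764% higher and 0.0229% lower), and the log2 values lay between -0.28 (Slc2a1) and 0.20 (Aldoc). An unadjusted p under 0.05 was reached by 3 of 32 (Slc2a1, Gbe1 and Slc16a1, all lower) and by 10.04% of all genes. Without overlap, 0 were higher and 7 lower, beside 7.67% and 8.57% of all genes. Slc2a4 was 28.1, 22.9 and 19.6 FPKM in siCtrl and 26.2, 22.3 and 20.8 in siH19, with overlapping groups. Slc2a1 was 21.0, 25.2 and 22.3 and 18.1, 19.3 and 18.3 FPKM, lower in all siH19 libraries (limma adjusted p = 0.36). The effect of siH19 at d3 differed between depots for 6 of 32 genes, beside 10.5% of all genes. It was more positive in BAT for Slc16a3 (0.80 ± 0.13, limma adjusted p = 0.0051) and Slc2a1 (0.69 ± 0.13, adjusted p = 0.0094). It was more negative for Slc2a4 (-0.81 ± 0.17, 0.015), Aldoa (-0.32 ± 0.06, 0.0084), Gys1 (-0.31 ± 0.05, 0.0047) and Gpi1 (-0.23 ± 0.06, 0.040). Gbe1 and Tkt had interactions of -0.25 ± 0.09 and -0.25 ± 0.08 (adjusted p = 0.098 and 0.082), and a difference between depots was called for them with median-ratio scaling (0.039 and 0.035). The Gpi1 call was lost with no filter on low values (adjusted p = 0.081) and in 9 of the 12 fits without 1 library. With median-ratio scaling 2 genes were more positive and 10 more negative in BAT, and of all genes 4.62% and 5.53%, beside 7.02% and 3.52% without it.

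**Figure D5:**
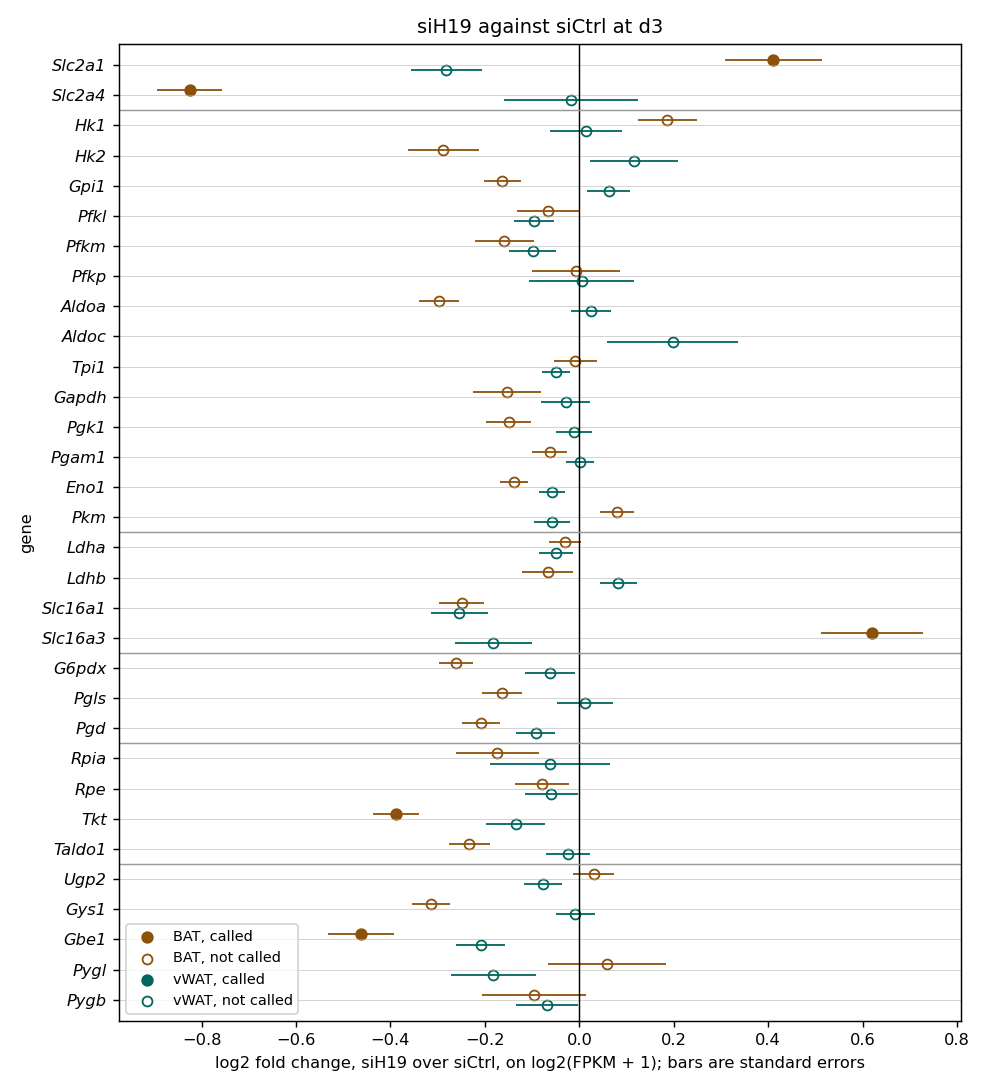
Log2 fold change of siH19 over siCtrl at d3 on log2(FPKM + 1) for each gene, with standard errors, in BAT (brown) and vWAT (green), filled where called. The 5 filled points are Slc2a4, Gbe1 and Tkt on the left and Slc2a1 and Slc16a3 on the right, all in BAT, and most open BAT points lie left of 0.

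Before differentiation, siH19 called no member in BAT or in vWAT. Of all genes 1.94% were called in BAT (0.617% higher, 1.32% lower) and 1.53% in vWAT (0.329% and 1.2%). An unadjusted p under 0.05 was reached by 14 of 31 genes in BAT and 11 of 31 in vWAT, and by 19.6% and 17.6% of all genes. Without overlap, 12 were higher and 7 lower in BAT, beside 10.6% and 16.1% of all genes, and 6 and 8 in vWAT, beside 8.36% and 16.2%. In BAT d0 Slc2a1 was 70.7, 68.1 and 66.0 FPKM in siCtrl and 90.5, 85.7 and 72.9 in siH19 (log2 0.27 ± 0.08, limma adjusted p = 0.14), and Ldhb 66.6, 51.8 and 62.7 and 46.9, 48.4 and 43.3 (log2 -0.37 ± 0.10, adjusted p = 0.10). In vWAT d0, Slc16a1 (-0.35, adjusted p = 0.035) and Pgd (-0.27, 0.043) lay under 1.3-fold. Slc2a4 did not pass the filter there, with 0.966, 2.15 and 1.21 FPKM in siCtrl and 0.957, 0.978 and 0.664 in siH19. The adipocyte markers were lower with siH19 at d0 in both depots (6 of 8 called in each).

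The siH19 cells were also followed from d0 to d3. In BAT 22 of 31 genes rose and 4 fell, beside 30.8% and 29.8% of all genes (60.6% in either direction), and all 22 that rose had also risen in siCtrl. Hk2 (0.16, against 0.66 in siCtrl) and Pkm (0.36, against 0.49) were called in siCtrl and not in siH19. In vWAT 16 of 32 rose and 6 fell, beside 28.2% and 24.5% (52.7%). All d3 libraries were above all d0 libraries for 23 genes in BAT and 20 in vWAT (37.4% and 37.4% of all genes) and below them for 5 and 8 (37.3% and 34.4%). Slc2a4 rose by 4.41 in siH19 BAT and 3.69 in siH19 vWAT, and Slc2a1 changed by -2.12 and -2.65. In BAT siH19 Hk2 was 24.2, 25.9 and 23.4 FPKM at d0 and 26.9, 30.2 and 25.5 at d3, and in vWAT siH19 45.8 ± 4.29 and 12.9 ± 1.36. Ldha was 669.5 ± 24.3 and 990.4 ± 17.7 FPKM in BAT siH19 and 704 ± 20.3 and 677 ± 24.03 in vWAT siH19 (SD, n = 3). These Hk2 values overlapped between days in BAT and those of vWAT did not. G6pdx was 77.1 ± 2.41 and 269 ± 2.34 FPKM in BAT siH19 and 67.2 ± 1.49 and 185 ± 10.5 in vWAT siH19. Gys1 was 29.9 ± 2.04 and 64.8 ± 1.05 in BAT siH19 and 24 ± 1.23 and 37.5 ± 1.26 in vWAT siH19, and Ldhb 101 ± 3.77 and 233 ± 7.04 in vWAT siH19. The Pygb call in BAT siH19 (-0.42) was lost in 3 of the 6 fits without 1 library. No test of the difference between the siRNAs in the change over time was made.

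Other genes of the same pathways were read from lists of carriers, minor isoforms, regulators and hypoxia response genes. From d0 to d3 in BAT siCtrl, 12 of 21 further glycogen genes tested were called higher and 3 lower, and in vWAT 11 and 2 of 20, where of all genes 29.9% and 35.3% were called in BAT and 26.3% and 23.9% in vWAT. The 5 largest rises over all these lists in BAT were Pck1, which starts glyceroneogenesis in fat (4.39), Mlxipl, the glucose-sensing factor ChREBP (4.22), the liver glycogen synthase Gys2 (4.03), and Pfkfb1 (3.81) and Pfkfb3 (3.46), which set fructose 2,6-bisphosphate. In vWAT they were Gys2 (2.57), Pfkfb1 (2.40), Gyg, the glycogen primer (2.07), Mlxipl (1.98) and the mitophagy receptor Bnip3 (1.97). Of the hypoxia response genes 5 were called higher and 7 lower of 14 in BAT, and 2 and 6 of 14 in vWAT, to be read against the same shares of all genes. Over all these lists and not only the hypoxia genes, the largest declines in BAT were Slc2a10 (-2.23), P4ha2 (-2.08), Adm (-2.00), Bpgm (-1.85) and Ndrg1 (-1.81). In vWAT they were Ndrg1 (-1.88), Vegfa (-1.63), Pfkfb4 (-1.31), Ero1l (-1.13) and Myc (-1.10).

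With siH19 in BAT d3 the other pathway genes that fell most were Pck1 (-1.09, limma adjusted p = 0.0035), the glycogen-targeting phosphatase subunits Ppp1r3b (-0.90) and Ppp1r3c (-0.65), Mlxipl (-0.75) and Ero1l (-0.46). Those that rose were Adm (0.77), P4ha1 (0.43) and Stbd1 (0.38). Mlxipl was 29.9 to 35.5 FPKM in siCtrl and 18.2 to 18.9 in siH19, and 20.3 to 20.7 in vWAT siCtrl d3. Pck1 and Mlxipl also differed between depots in their siH19 effect at d3 (-1.56 and -0.72, limma adjusted p = 0.0019 and 0.0027). Acta1, of the muscle list, was not analysed here.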

How the data were processed

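Poly(A) RNA-seq libraries of 24 cultures were read from 1 table of gene-level values. The authors deposited FPKM, the unit being inferred from the values and the study's methods since the table does not name it; TopHat2 and Cufflinks come from the study's methods, and the submitters' notes name these, STAR and build GRCm38, and whether counting used strand is not stated. No counts were used. Values were taken as log2(FPKM + 1), and genes with FPKM of at least 1 in at least 3 libraries of a comparison were tested with limma 3.58.1 (trend, R 4.3.3) on the libraries of that comparison, 6 for a pair of groups and 12 for an interaction. P-values were adjusted by Benjamini-Hochberg over all tested genes, and a call needed an adjusted p under 0.05 and 1.3-fold (no minimum fold for interactions). For shares and sums the permutation test was exact and two-sided. Promoters came from RefSeq. The 32 genes and all lists were chosen with earlier results of these data known. Nothing in the labels says that replicates are separate animals, so p-values measure the spread between cultures as deposited, which may be technical. Named genes were called members, up to 10 a direction, and Slc2a1, Slc2a4, Hk2, Ldha, Ldhb, G6pdx and Gys1 throughout, and of the other lists up to 5 a direction. Scaled depot values and Pfkm shares were added after seeing the data. Alternatives were no filter, a pseudocount of 0.1, median-ratio scaling, 1 fit of all 24 libraries, no minimum fold (1.3-fold for interactions), a replicate block and leaving out each library. The pairwise limma fit was tested on simulated data for siH19 against siCtrl at d3 in BAT and vWAT. The interaction fits and the promoter search were not tested in this way.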

Additional observations from a re-analysis of the deposited data

Results flagged for a closer look

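The effect of siH19 at d3 differed between BAT and vWAT by the test of the difference itself (interaction in limma, adjusted p under 0.05) for 6 of the 32 genes, beside 10.5% of all genes. On the log2 scale, BAT minus vWAT, the difference was Slc2a4 (-0.81), Slc16a3 (0.80), Slc2a1 (0.69), Aldoa (-0.32), Gys1 (-0.31) and Gpi1 (-0.23). The Gpi1 call was lost in 9 of 12 fits without 1 library.

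The change from d0 to d3 in siCtrl cells differed between BAT and vWAT by the same kind of test for 27 genes, beside 53% of all genes, so such a difference was common among all genes. The calls of Hk1 and Rpia were lost in 7 and 8 of 12 fits without 1 library. The change was more positive in BAT for Hk2 (2.52), Gbe1 (1.78), Taldo1 (1.70), Gpi1 (1.65), Slc2a4 (1.51), Ldhb (1.36), Aldoa (1.31), Pgd (1.28), Tkt (1.12), Slc16a1 (1.05), Gapdh (0.92), Pgk1 (0.88), Pkm (0.86), Pgam1 (0.85), Eno1 (0.73), G6pdx (0.70), Gys1 (0.67), Ldha (0.66), Rpe (0.62), Pfkl (0.46), Rpia (0.45) and Tpi1 (0.38). It was more negative in BAT for Pygb (-1.296), Pygl (-0.89), Slc16a3 (-0.68), Ugp2 (-0.30) and Hk1 (-0.22). Depot and culture medium cannot be told apart in these differences.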

How the results depend on the processing

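Over the 169 called values of members in the 12 comparisons, 2217 alternative values were computed: 2156 kept direction and call, 61 lost the call and none changed sign, and 16 of the 169 lost their call in at least 1 alternative. With siH19 in BAT d3, no minimum fold gave 15 genes (2 higher, 13 lower, beside 10.6% and 5.61% of all genes), and fits without 1 library gave 2 to 4 (2 without siCtrl replicate 2, 3 without siH19 replicate 3). In vWAT d0, 1 fit of all 24 libraries called 1 gene (Pygb) and no minimum fold called 2, against 0. The depot difference of the siH19 effect was called for 12 genes with median-ratio scaling and for 3 with a minimum of 1.3-fold, against 6, and for 5 to 7 without 1 library. Without 1 library the calls were 0 for siH19 in vWAT d3 and at d0 in both depots. From d0 to d3 they were 27 to 28 (BAT siCtrl), 19 to 22 (vWAT siCtrl), 25 to 27 (BAT siH19) and 21 to 22 (vWAT siH19), between depots 15 to 17 (d0) and 20 to 21 (d3), and for depot by day 25 to 27. The cause of these shifts was not tested. Under median-ratio scaling 41 differences of summed levels moved by less than the SD within groups, 27 moved by more and 2 reversed. The 2 reversed were the summed glycogen genes, BAT minus vWAT. They were -9.88 FPKM at d0 and -14.3 at d3, and after median-ratio scaling 0.517 and 6.89, opposite in sign. Same-numbered libraries deviated from their group means with r of -0.143 to 0.0880 over 30 pairs, and other pairs with -0.156 to 0.172. No pairing by number was thus seen, and deviations from means of 3 libraries cannot exclude one. With a replicate block, 4 genes were called with siH19 in BAT d3 against 5, Slc2a1 losing its call (limma adjusted p = 0.058). Read depth is not known, so low genes such as Aldoc carry an error that could not be stated.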
